A study of Mus musculus with 2 samples.

Results

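Venous endothelial cells were taken from single cell RNA-seq of dystrophic mouse muscle as 158 of 8010 cell barcodes, 110 of 4527 in the Ctrl library and 48 of 3483 in the dKO library. They were chosen on measured genes. A cell needed at least 500 detected genes, at least 3 of the 6 endothelial genes Pecam1, Cdh5, Kdr, Flt1, Cldn5 and Esam, and 0 UMIs (unique molecular identifiers, the tags that count single RNA molecules) of Ptprc, Pdgfra, Prox1 and Myh11, which mark leukocytes, fibroblasts, lymphatic endothelium and smooth muscle. Within this endothelial gate of 439 Ctrl and 179 dKO cells, a venous cell carried at least 2 of the 4 markers Selp, Vwf, Ackr1 and Lrg1 and fewer than 2 of the arterial markers Cytl1, Sema3g, Gja5 and Bmx. The levels of these genes in the venous cells therefore follow from the rule and are given as a description. The genes and lists below were chosen with earlier results of these data known.

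Hind limb muscle came from mdx mice, which lack dystrophin and model Duchenne muscular dystrophy. The mdx allele came from a C57BL/10 ScSn strain that was crossed with the Pax7CreERT2 line. The Ctrl mice were Pax7CreERT2/R26YFP; Yy1+/+; mdx and the dKO mice Pax7CreERT2/R26YFP; Yy1f/f; mdx. By the study's methods young mice of both groups received tamoxifen, and this muscle was taken a month after it, although the deposited treatment label of Ctrl reads no treatment. The Cre recombinase is driven from Pax7, a gene of muscle stem cells and not of endothelium, so venous cells were not the target of the deletion. Cells of several mice were pooled into 1 library per genotype. No replicate therefore exists, no test was run, and every interval below is a 95% interval that covers counting error only, so a difference between the libraries cannot be told apart from a difference between pools or library preparations.

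The Ctrl library held 45556596 UMIs and the dKO library 33815155, with medians of 7697 and 7615 per barcode, and 4335 and 3329 cells passed 500 genes. Levels are given as CPM, the UMIs of a gene per 1000000 UMIs summed over the cells named. The deleted gene was examined first. In muscle stem cells Yy1 was at 161 CPM (145 to 179, 99 cells) in Ctrl and at 6.01 CPM (1.64 to 15.4, 24 cells) in dKO. In venous cells, which the Cre does not target, Yy1 was at 255 CPM (223 to 291, 219 UMIs) in Ctrl and at 258 CPM (208 to 316, 92 UMIs) in dKO, with overlapping intervals. The 2 libraries shared 7 barcodes, none of them in a venous cell.

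Venous endothelium lines the vessels that drain the capillary bed, and its smallest branches, the post-capillary venules, are the main site where leukocytes leave the blood. P-selectin (Selp) and von Willebrand factor (Vwf) are stored together in Weibel-Palade bodies and reach the surface or the blood when the cell is stimulated, E-selectin (Sele) and the ligands Vcam1 and Icam1 are made after cytokine signals, and Ackr1, an atypical receptor, carries chemokines across the venule wall. These cells thereby take part in selecting which leukocytes enter an inflamed tissue.

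Venous cells made up a like share of endothelial cells in both libraries and a smaller share of all cells in dKO. Of the cells in the gate, 25.1% were venous in Ctrl (21.1 to 29.4) and 26.8% in dKO (20.5 to 33.9), a difference of 1.76 percentage points (-5.56 to 9.67). Of all cells with at least 500 genes, 2.54% were venous in Ctrl (2.09 to 3.05) and 1.44% in dKO (1.06 to 1.91), a difference of -1.10 points (-1.72 to -0.464). The whole endothelial gate stood at 10.1% of Ctrl and 5.38% of dKO cells, so the gate and its venous members were smaller together. Venous cells were deep, with medians of 6623 UMIs in Ctrl and 7563.5 in dKO, against 3848.5 and 2843 in the 286 and 101 other endothelial cells, those with fewer than 2 markers of either kind. A deeper cell shows more markers. With every cell thinned to 2000 UMIs before the markers were counted, 21.2% of Ctrl and 28.5% of dKO endothelial cells were venous, from 425 and 151 cells. The gate also removed 40 Ctrl and 25 dKO cells that carried 2 or more venous markers, 15 and 9 of them for a UMI of Ptprc, and these are not described here.

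The 4 markers were not found in every venous cell. Vwf was detected in 98.2% of Ctrl and 89.6% of dKO venous cells, Lrg1 in 99 of 110 and 45 of 48 cells, Selp in 81.8% and 85.4%, and Ackr1 in 61.8% and 68.8%. All 4 were present in 62 Ctrl and 28 dKO cells. Thinned to 2000 UMIs, Ackr1 was found in 49.1% of 106 Ctrl and 53.2% of 47 dKO venous cells (4 and 1 shallower cells left out) and in 0 of 233 and 0 of 69 other endothelial cells. Vwf was the least particular of the 4, with a UMI in 25.5% of the 286 Ctrl and 15.8% of the 101 dKO other endothelial cells before thinning. Venous cells, 2.54% and 1.44% of cells, held 63.1% of all Selp UMIs of the Ctrl library and 57.4% of those of the dKO library. For Ackr1 these shares were 60.6% and 53.8%, and cells with Pdgfra held another 16.0% and 23.5%.

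Cells at the limit of the rule carried capillary genes. In Ctrl the 89 cells with 1 venous marker had Gpihbp1, which anchors lipoprotein lipase to the capillary wall, at 897 CPM, the 27 cells with 2 markers at 610 CPM, the 21 with 3 at 188 CPM and the 62 with 4 at 47.7 CPM. In dKO the same steps were 998, 739, 308 and 42.8 CPM over 30, 10, 10 and 28 cells. Sele ran the other way, from 8.94 CPM with 1 marker to 290 with 2 and 1538 with 4 in Ctrl, and from 89.4 to 203 and 1443 in dKO. Rgs5, a pericyte gene, was at 654 CPM in the Ctrl cells with 2 markers and at 55.7 CPM in those with 4, and at 591 and 0 CPM in dKO. The cells with 2 markers were also shallower, with medians of 4887 and 4254.5 UMIs against 7543.5 and 9153 in those with 4. Not all capillary genes followed these steps. Summed over the list they stood at 19487, 20515 and 17680 CPM with 2, 3 and 4 markers in Ctrl and at 26489, 17822 and 16225 CPM in dKO. Several values below are also given for the cells with all 4 markers.

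**Figure D1:**
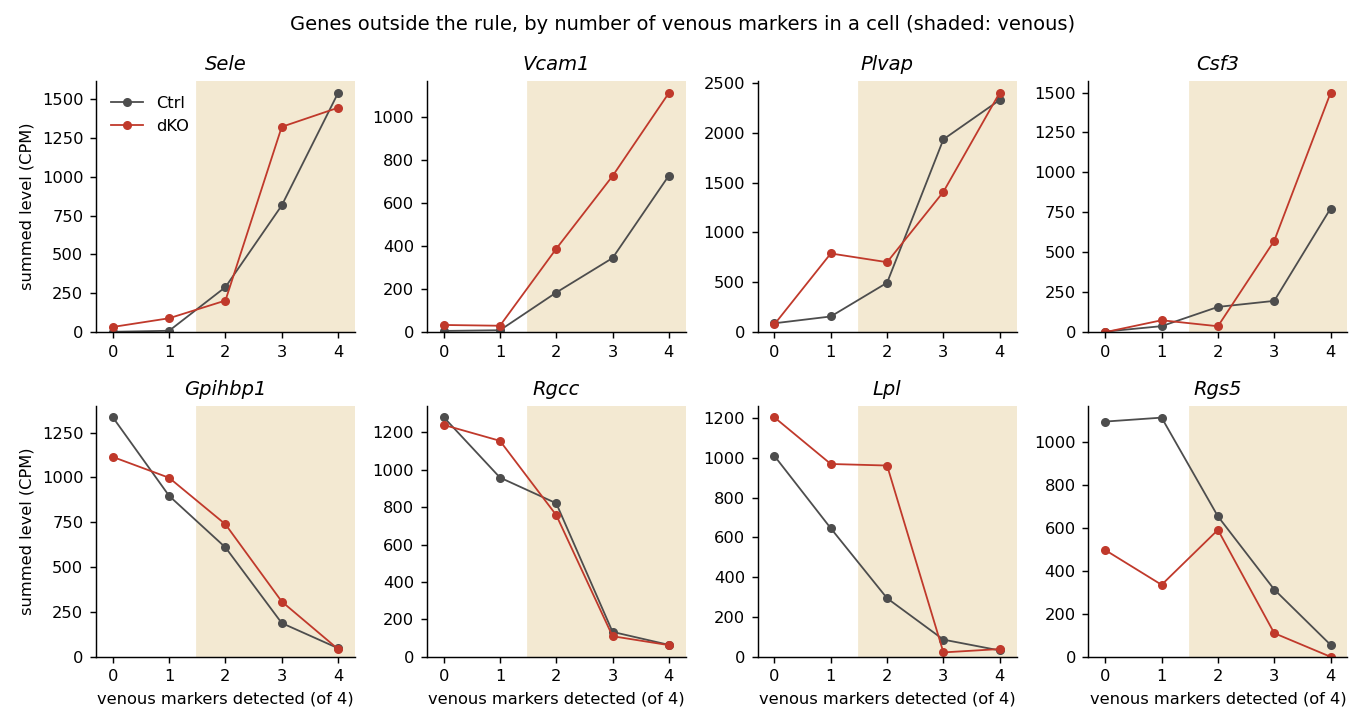
Summed level (CPM, linear axis) of 8 genes outside the rule against the number of the 4 venous markers detected in a cell, for Ctrl (grey) and dKO (red), with the venous cells shaded. Sele, Vcam1, Plvap and Csf3 were highest in cells with 4 markers, and Gpihbp1, Rgcc and Lpl lowest there or with 3 markers, in both libraries.

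Markers of other cell types were counted in the venous cells, and single cells held much of them. Of 9 macrophage markers all were detected in each library, summing to 158 CPM in Ctrl and 401 CPM in dKO, but 107 of the 143 dKO UMIs (74.8%) lay in 1 cell, which was also the deepest dKO venous cell (17892 UMIs, 249 of them of the 4 venous markers). Fibroblast markers summed to 585 CPM in Ctrl and 286 CPM in dKO, with 258 of the 502 Ctrl UMIs in 1 cell. The deepest Ctrl cell, with 54238 UMIs or 6.32% of all Ctrl venous UMIs, carried 2 UMIs of the 4 venous markers and 88 of the 213 cell cycle UMIs. Mural markers summed to 1017 CPM in Ctrl and 903 CPM in dKO, neutrophil markers to 17.5 and 16.8 CPM, and platelet markers to 39.6 and 61.7 CPM. Of the lymphatic markers 3 of 6 were at 0 in Ctrl and 5 of 6 in dKO, with sums of 28.0 and 5.61 CPM, and lymphocyte markers stood at 1.17 and 0 CPM, erythroid genes at 1.17 and 0 CPM and muscle genes at 29.1 and 2.80 CPM. Leaving out the 5 Ctrl and 2 dKO cells with 20 or more UMIs of the fibroblast, macrophage or cell cycle lists gave 40 genes higher and 67 lower past 2-fold in dKO, in place of 56 and 82. The part of these cells in the results below was not tested beyond the values given without them.

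Genes outside the rule described the venous cells further. Of 6475 genes compared with the other endothelial cells, 224 were 2-fold or more higher in venous cells in both libraries (3.46%) and 364 lower in both (5.62%). This is a description, since the same cells' genes chose them. Among 14 measured venous genes that the rule did not use, 11 were 2-fold or more higher. Sele stood at 1099 CPM in Ctrl and 1239 CPM in dKO venous cells, against 4.84 and 53.5 CPM in other endothelial cells. Plvap, the protein of the diaphragms that close fenestrae and caveolae, stood at 1784 and 2018 CPM against 115 and 334 CPM. Vcam1 stood at 527 and 953 CPM against 6.92 and 32.1 CPM, but arterial cells of the gate also carried it, at 1029 and 1363 CPM. Sele had 0 UMIs in the 37 Ctrl and 21 dKO arterial cells. Nr2f2, the transcription factor that sets venous identity, was at 191 and 230 CPM against 69.2 and 66.9 CPM. Ephb4, a receptor named as a venous marker in development, was not higher, at 75.7 and 58.9 CPM against 85.1 and 102 CPM.

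Genes outside the rule found in at least 20% of venous cells of each library were ranked by level relative to other endothelial cells. The 15 highest had varied roles. Csf3, the neutrophil growth factor G-CSF, was at 524 CPM in Ctrl and 1158 CPM in dKO against 16.6 and 26.7 CPM. Ret, the receptor kinase for GDNF ligands, was at 29.1 and 33.6 CPM against 0 UMIs in other endothelial cells. Against a floor of 3 UMIs over the cells of each library these levels were 14.0-fold and 4.19-fold higher. The lower ends of the counting intervals of its log2 ratio were 3.41 and 1.54. The receptors of leptin (Lepr, 86.2 and 84.1 CPM) and RANK ligand (Tnfrsf11a, 78.1 and 78.5 CPM) were each below 5 CPM in other endothelial cells of both libraries. Nt5e and Bst1, which encode the surface enzymes CD73 and CD157, stood at 88.6 and 53.6 CPM in Ctrl and 78.5 and 86.9 CPM in dKO. Lbp, which binds bacterial lipopolysaccharide, was at 158 and 210 CPM against 1.38 and 13.4 CPM. Tagln, also a smooth muscle gene, was at 692 and 771 CPM against 31.8 and 45.5 CPM and made up 68.0% and 85.4% of all mural marker UMIs in venous cells. Ehd3, Kank1, Anpep, Chp2, Cadm3, Sele and Vcam1 completed the list. Arterial cells also carried Anpep (73.9 and 43.7 CPM against 39.6 and 44.9 CPM in venous cells), Chp2 (79.6 and 43.7 CPM against 132 and 112 CPM) and Kank1 (45.5 and 69.9 CPM against 113 and 84.1 CPM). Lepr was at 39.8 and 8.74 CPM in arterial cells and Tnfrsf11a at 0 and 34.9 CPM.

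Of 15 capillary genes, 11 were 2-fold or more lower in venous cells in both libraries, against 5.62% of all genes. So were 7 of 13 arterial genes outside the rule, 4 of 7 mural markers and 6 of 20 BMP, TGF-beta and Notch genes. The same held for 5 of 12 tip and angiogenic genes, 4 of 14 basement membrane genes, 3 of 12 heat shock genes and 5 of 21 antiviral genes. Car4, the carbonic anhydrase of the capillary surface, was at 6.99 CPM in Ctrl and 8.41 CPM in dKO venous cells against 147 and 112 CPM. Lpl, the lipase that Gpihbp1 anchors, was at 110 and 177 CPM against 868 and 1118 CPM, and Timp4 at 60.6 and 64.5 CPM against 626 and 484 CPM. The transcription factor Tcf15 was at 62.9 and 36.4 CPM against 422 and 313 CPM. Fabp4, a fatty acid carrier, was still abundant at 11691 and 11480 CPM against 15831 and 16032 CPM, and the water channel Aqp1 was not lower, at 3134 and 3123 CPM against 2520 and 2517 CPM. Jup, Clic5, BC028528, N4bp3, Kctd12b, Cdkn1c, Ednrb, Aqp7, Gpihbp1, Nes and Bambi-ps1 were the other genes at the low end.

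**Figure D2:**
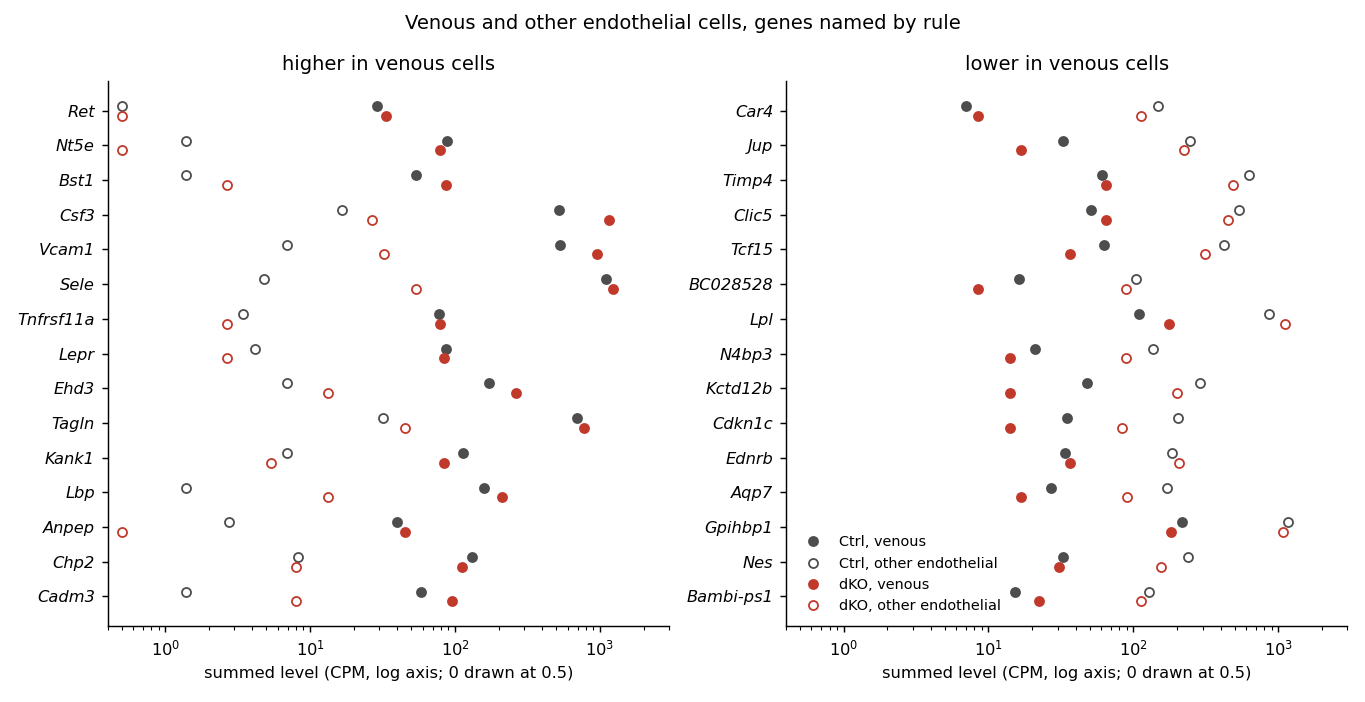
Summed level (CPM, log axis, values of 0 drawn at 0.5) of the 15 genes highest and the 15 lowest in venous cells (filled) relative to other endothelial cells (open), in Ctrl (grey) and dKO (red). Genes of the rule were left out of the ranking. In each panel filled and open points do not overlap for any gene, with Car4 at 6.99 and 8.41 CPM in venous cells against 147 and 112 CPM.

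Venous cells of dKO were then compared with those of Ctrl, to see how this vessel segment differed in a muscle whose stem cells had lost Yy1. Of 3547 genes with at least 50 UMIs over the 2 libraries, 56 were 2-fold or more higher in dKO (1.58%) and 82 were 2-fold or more lower (2.31%), with a median log2 ratio of -0.02. Most of the measured chemokine and interferon-gamma inducible genes stood higher in dKO, and most heat shock and basement membrane genes lower. The 4 markers chose the cells, and their own levels are given as a description. Summed, they had a log2 ratio of 0.66 over all venous cells and 0.39 over cells with all 4 markers.

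Selp, a gene of the rule, was at 3490 CPM in Ctrl (3366 to 3617, 2995 UMIs) and at 5640 CPM in dKO (5397 to 5892, 2012 UMIs), a ratio of 1.62 (1.53 to 1.71). Among cells with all 4 markers the log2 ratio of Selp was 0.38 (0.29 to 0.47), in place of 0.69 over all venous cells. Vcam1, the ligand of the integrin VLA-4 on monocytes and lymphocytes, was at 527 CPM in Ctrl (479 to 577) and 953 CPM in dKO (855 to 1060), 1.81 times as high (1.57 to 2.09). Sele had a log2 ratio of 0.17 (0.01 to 0.34) that turned to -0.09 in cells with all 4 markers, and Icam1, at 452 and 401 CPM, one of -0.17 (-0.46 to 0.11), which was -0.35 (-0.64 to -0.06) without the cells rich in other types' markers and -0.40 (-0.71 to -0.10) with doublets removed. Of 16 measured adhesion and transmigration genes 12 were higher and 4 lower in dKO, 0 of them past 2-fold, with a median log2 ratio of 0.04. Without the 3 genes that the rule used, 10 were higher and 3 lower. Without the cells rich in other types' markers, 7 of the 16 were higher and 9 lower. Among cells with all 4 markers, 6 were higher and 9 lower. Selp alone accounted for 33.1% of the list in Ctrl and 42.4% in dKO.

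Vwf, another gene of the rule and the main cargo of Weibel-Palade bodies, was at 849 CPM in Ctrl (789 to 913) and 1020 CPM in dKO (918 to 1131), a log2 ratio of 0.26 (0.08 to 0.45). Of 9 measured genes of the granule and its release that the rule did not use, 2 were higher and 7 lower in dKO, with 0 past 2-fold. Cd63, a membrane protein of the granule, was at 259 and 177 CPM (log2 ratio -0.55, -0.98 to -0.14), but its ratio was 0.11 (-0.37 to 0.58) without the cells rich in other types' markers. Summed over the list, Vwf included, the log2 ratio was 0.26 with Selp and -0.12 without it. Among coagulation genes Procr, the endothelial receptor of protein C, was at 360 CPM in Ctrl and 639 CPM in dKO, 1.78 times as high (1.49 to 2.11), while thrombomodulin (Thbd) was at 274 and 269 CPM.

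Of 9 measured genes of chemokines and their atypical receptors, 8 were higher in dKO and 5 past 2-fold (Ackr1, Ackr3, Ccl2, Cxcl2 and Cxcl9), against 1.58% of all genes. Without Ackr1, which the rule used, 4 of 8 were past 2-fold, and 3 of 7 without Ackr1 and the cells rich in other types' markers. Ackr1 itself was at 750 CPM in Ctrl (694 to 811) and 1539 CPM in dKO (1413 to 1673), 2.05 times as high (1.83 to 2.30), and its log2 ratio was 0.71 (0.54 to 0.88) in cells with all 4 markers against 1.04 over all venous cells. Cxcl1, a neutrophil chemokine, was at 309 CPM (273 to 348) and 617 CPM (538 to 704) and was found in 44.5% and 62.5% of venous cells. Cxcl9, which draws T cells through Cxcr3, was at 87.4 CPM (68.7 to 110) and 376 CPM (315 to 445), a log2 ratio of 2.10 (1.69 to 2.53). Cxcl2 stood at 72.2 CPM in Ctrl and 390 CPM in dKO, but 43.9% of its dKO UMIs lay in 1 cell and it was found in 15 of 110 Ctrl and 12 of 48 dKO cells. Its log2 ratio was 2.43 over all venous cells and 3.82 over those with all 4 markers (17 and 123 UMIs). The scavenging receptor Ackr3 was at 33.8 and 107 CPM. Cxcl12, the ligand of Cxcr4, was the one measured chemokine at a lower level in dKO, 311 CPM against 438 CPM (log2 ratio -0.49, -0.81 to -0.18), but not among cells with all 4 markers (0.07, -0.50 to 0.62), where Cxcl10 was the lower one (-0.19, -0.48 to 0.09). Cxcl12 was at 1782 against 1246 CPM in other endothelial cells. Ccl2 and Ccl7 are not described as venous, since 26 of 33 and 17 of 19 of their dKO UMIs lay in the 1 cell rich in macrophage genes, and without the rich cells the log2 ratio of Ccl2 was -0.90.

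Cytokine genes gave a mixed picture. Csf3 was at 524 CPM in Ctrl (477 to 575) and 1158 CPM in dKO (1049 to 1275), 2.21 times as high (1.93 to 2.53). It was found in 33 of 110 Ctrl and 27 of 48 dKO venous cells, and thinned to 2000 UMIs in 23.6% and 48.9%, against 1.29% and 1.45% of other endothelial cells thinned in the same way. Without the cells rich in other types' markers its log2 ratio was 0.85 (0.65 to 1.06) in place of 1.14. Il6 was at 644 and 813 CPM (log2 ratio 0.34, 0.13 to 0.54), with a ratio of 0.20 (-0.02 to 0.41) without the cells rich in other types' markers and 0.24 (-0.01 to 0.49) in cells with all 4 markers. Socs3, the feedback inhibitor of IL-6 family signalling, was lower in dKO, at 1024 CPM in Ctrl (958 to 1094) and 684 CPM in dKO (601 to 775), 0.668 times the Ctrl level (0.577 to 0.771). The receptor chain Il6st stood at 884 and 782 CPM, and Nfkbia, an inhibitor and target of NF-kB, at 2011 and 2545 CPM. Of 20 measured cytokine receptor, NF-kB and STAT3 target genes that the rule did not use 11 were higher and 9 lower. Of these 1 was past 2-fold higher (Csf3), against 1.58% of all genes. With doublets removed 8 were higher and 12 lower, and in cells with all 4 markers 8 and 9 of 17. Summed with Lrg1, a gene of the rule, the list's log2 ratio was 0.22 (0.17 to 0.28) in venous cells. In other endothelial cells it was 0.40 (0.32 to 0.47).

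Interferon-gamma inducible genes, a list that shares Cxcl9 and Cxcl10 with the chemokines, stood higher nearly throughout. Of 16 measured, 15 were higher in dKO and 6 were past 2-fold higher, against 1.58% of all 3547 genes. Their median log2 ratio was 0.61, against a median of -0.02 over all genes. Gbp2, a guanylate binding protein, was at 147 CPM in Ctrl (122 to 175) and 420 CPM in dKO (356 to 493), 2.86 times as high (2.25 to 3.66). Gbp7 was at 144 and 325 CPM, and Cd274, the T cell inhibitory ligand PD-L1, at 45.4 and 123 CPM. Iigp1, the GTPase with most UMIs, was at 895 CPM (833 to 960) and 1346 CPM (1228 to 1472), and Irf1 at 202 and 193 CPM. Summed over the list the log2 ratio was 0.65 (0.56 to 0.75) in venous cells and 0.49 (0.38 to 0.60) in other endothelial cells. Without the cells rich in other types' markers 15 of 16 were still higher and 4 past 2-fold, and among cells with all 4 markers 10 of 13 were higher and 3 past 2-fold.

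Of 13 measured antiviral effectors 11 were higher in dKO and 4 past 2-fold (Irf7, Oasl2, Ifi44 and Ifi35) against 1.58% of all genes, and among cells with all 4 markers 6 of 8 were higher and 2 past 2-fold. Irf7, a transcription factor of the interferon response, was at 37.3 CPM in Ctrl and 121 CPM in dKO, a log2 ratio of 1.69 (1.00 to 2.40), and it was found in 20.9% and 47.9% of venous cells. In other endothelial cells Irf7 was at 102 and 190 CPM, so the venous level was below theirs in both libraries. The most abundant member, Ifitm3, was at 3439 and 3670 CPM and held 67.0% of the list's UMIs in Ctrl. The list's log2 ratio was 0.24 (0.17 to 0.32) with Ifitm3 and 0.51 without it. In other endothelial cells the list's ratio, Ifitm3 included, was larger, at 0.43 (0.36 to 0.49). Of 14 MHC class I and immunoproteasome genes 12 were higher and 0 past 2-fold, and 8 were higher and 6 lower with doublets removed or in cells with all 4 markers. The list was led by H2-K1 at 1713 and 2377 CPM (log2 ratio 0.47, 0.35 to 0.60). Summed, the list's log2 ratio was 0.26 (0.20 to 0.33) in venous and 0.34 (0.28 to 0.39) in other endothelial cells. The class II genes were scarce, with Cd74 at 60.6 and 47.7 CPM.

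**Figure D3:**
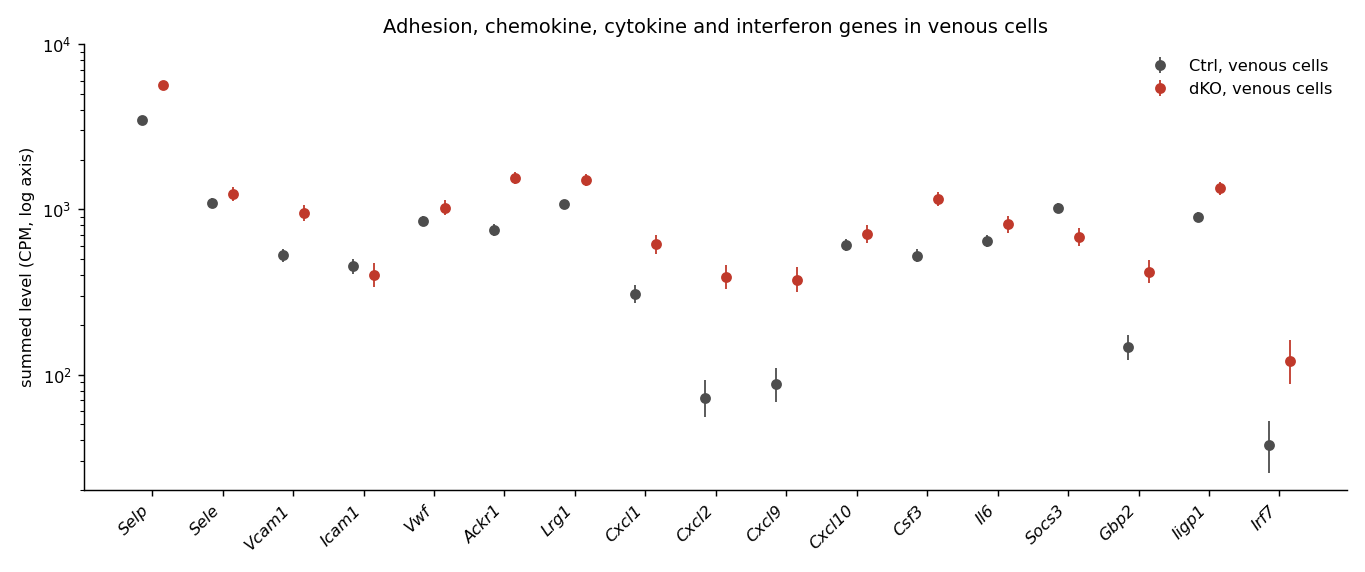
Summed level (CPM, log axis) of 17 genes in the venous cells of Ctrl (grey, 110 cells) and dKO (red, 48 cells), with exact Poisson 95% intervals. The intervals of Vcam1, Cxcl1, Cxcl9, Csf3, Gbp2 and Irf7 lie higher in dKO. That of Socs3 lies lower, and those of Icam1 and Cxcl10 overlap. Selp, Vwf, Ackr1 and Lrg1 are genes of the rule and are drawn as a description.

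The 250 bases before the start of 4 of these genes are printed as examples of genes that hold a motif, taken from RefSeq (GRCm38.p6). The NF-kB consensus, on both strands, occurs in this window in 5.67% of 27025 gene symbols and in 4 of 14 chemokine list genes with an entry (Ackr2, Cxcl1, Cxcl2 and Cxcl10). The core of the interferon-stimulated response element, GAAANNGAAA on both strands, occurs in 3.46% of gene symbols, in 11 of 15 interferon-gamma inducible genes with an entry and in 9 of 18 antiviral genes. A match is a run of letters and not a measured binding site. Capitals mark the match, which is the NF-kB consensus in Cxcl1 (chr5:90890995-90891244, plus strand) and Cxcl2 (chr5:90903649-90903898, plus strand), and the response element, read on the other strand, in Gbp2 (chr3:142620413-142620662, plus strand) and Gbp7 (chr3:142530086-142530335, plus strand).
Cxcl1: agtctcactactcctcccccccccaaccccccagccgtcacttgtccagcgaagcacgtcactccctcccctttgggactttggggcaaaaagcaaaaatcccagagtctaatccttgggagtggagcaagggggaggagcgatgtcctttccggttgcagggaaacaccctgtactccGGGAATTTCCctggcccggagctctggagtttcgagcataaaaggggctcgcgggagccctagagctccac
Cxcl2: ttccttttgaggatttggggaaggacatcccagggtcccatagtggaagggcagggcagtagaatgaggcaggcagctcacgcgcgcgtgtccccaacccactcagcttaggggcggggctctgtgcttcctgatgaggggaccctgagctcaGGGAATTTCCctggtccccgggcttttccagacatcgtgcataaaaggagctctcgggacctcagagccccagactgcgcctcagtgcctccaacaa
Gbp2: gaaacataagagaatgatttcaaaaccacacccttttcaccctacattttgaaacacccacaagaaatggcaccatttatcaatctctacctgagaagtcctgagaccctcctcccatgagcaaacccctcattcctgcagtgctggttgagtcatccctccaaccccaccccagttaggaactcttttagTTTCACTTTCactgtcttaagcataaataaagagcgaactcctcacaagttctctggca
Gbp7: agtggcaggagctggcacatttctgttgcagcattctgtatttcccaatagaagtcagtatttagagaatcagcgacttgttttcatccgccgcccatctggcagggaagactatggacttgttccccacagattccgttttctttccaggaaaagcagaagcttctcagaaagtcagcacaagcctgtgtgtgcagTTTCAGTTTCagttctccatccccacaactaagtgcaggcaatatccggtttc
Cxcl1 and Cxcl2 carried the same 10 letters, 71 and 97 bases before the start. Cxcl10 and Gbp5 held both motifs and had log2 ratios of 0.21 (-0.01 to 0.43) and 0.06, and Irf1 held the NF-kB consensus and had one of -0.06, against 1.00 for Cxcl1, 2.43 for Cxcl2, 1.52 for Gbp2 and 1.17 for Gbp7. Selp, Ackr1 and Lrg1, the 3 markers of the rule with an entry, held neither motif in this window.

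Most heat shock genes stood lower in dKO venous cells. Of 12 measured 9 were lower and 3 higher, 0 past 2-fold, with a median log2 ratio of -0.11. The summed log2 ratio was -0.27 (-0.31 to -0.23) in venous cells against 0.14 (0.12 to 0.17) in other endothelial cells, a difference that was not tested. Without the cells rich in other types' markers 8 were lower and 4 higher, with a median of -0.05. Hsp90ab1 (0.16) and Hspa5 (0.41) were among those 4. Hspb1, a small chaperone, was at 5224 CPM in Ctrl (5072 to 5379) and 3367 CPM in dKO (3179 to 3563), 0.645 times the Ctrl level (0.604 to 0.687). Hspa1a, an Hsp70 chaperone induced by stress, was at 3539 and 2674 CPM, with a log2 ratio of -0.40 that was -0.84 in cells with all 4 markers. Fos was at 1080 CPM in Ctrl and 547 CPM in dKO, and Jun at 2163 and 1836 CPM. Klf2, which laminar flow induces, was at 932 and 558 CPM. Of 10 measured shear-responsive genes, however, 7 were higher and 3 lower, 0 past 2-fold. Their summed log2 ratio was 0.16 (0.09 to 0.24), and -0.085 without Hmox1, the leading gene. Of 16 immediate early genes 10 were higher and 6 lower, and 8 and 8 with doublets removed. Hmox1, which breaks down heme, was at 1688 CPM (1603 to 1778) and 2568 CPM (2404 to 2740), and in other endothelial cells at 649 and 1557 CPM.

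Of 15 BMP, TGF-beta and Notch genes 10 were lower and 5 higher in dKO, with Smad7 and Hes1 past 2-fold lower (2.31% of all genes were) and Bmp2 past 2-fold higher (1.58%). Among cells with all 4 markers 0 of the 10 genes with at least 50 UMIs were past 2-fold. Smad7 and Hes1 had fewer UMIs there, with log2 ratios of -1.12 (-2.44 to 0.02) and -0.99 (-2.32 to 0.17). Smad7, the inhibitory Smad, was at 114 CPM in Ctrl and 36.4 CPM in dKO (log2 ratio -1.65, -2.61 to -0.81), whereas other endothelial cells had 232 and 241 CPM. Hes1, a Notch target, was at 108 and 42.1 CPM. For Bmp2, 76.9% of the 26 dKO UMIs lay in 1 cell. Of 13 basement membrane genes 9 were lower and 4 higher (6 and 5 of 11 among cells with all 4 markers), 1 of them past 2-fold lower (Fn1, 85.1 and 36.4 CPM, with a log2 ratio that turned from -1.22 to 0.63 without the cells rich in other types' markers), with Col4a1 at 1594 and 1273 CPM and Sparc at 2615 and 2007 CPM. The list's log2 ratio was -0.29 (-0.36 to -0.22) in venous and -0.41 (-0.46 to -0.36) in other endothelial cells. Tip and angiogenic genes were lower in 5 of 5 measured (3 of 4 with doublets removed), with a list ratio of -0.46 (-0.64 to -0.28) against -0.18 in other endothelial cells. Of 12 junction and permeability genes that the rule did not use 5 were higher and 7 lower, with 0 past 2-fold. Of 14 pan-endothelial genes outside the rule 8 were lower and 6 higher, with a summed log2 ratio of -0.08 (-0.15 to -0.01), and 11 were lower and 3 higher without the cells rich in other types' markers.

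**Figure D4:**
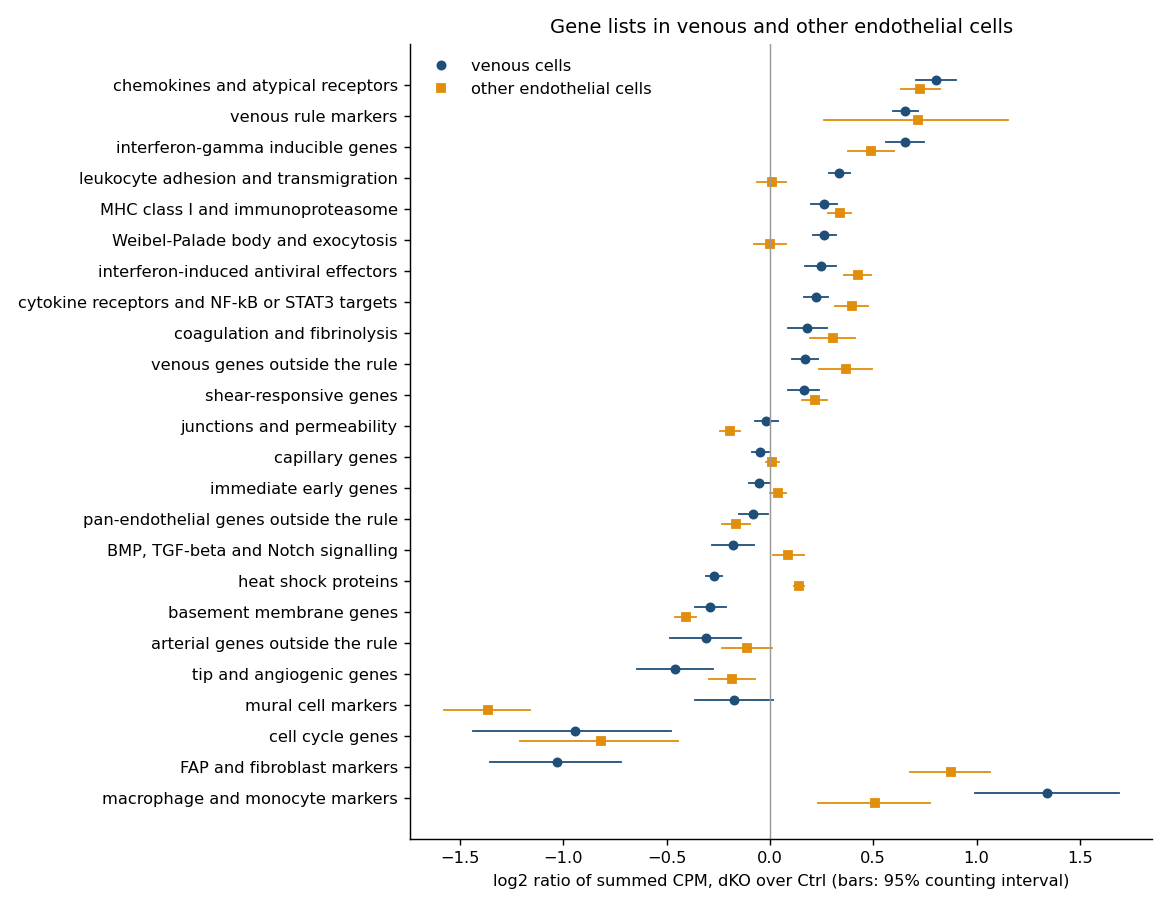
Log2 ratio of dKO to Ctrl of the summed CPM of 24 gene lists in venous cells (circles) and other endothelial cells (squares), with 95% counting intervals. Chemokine genes stood at 0.80 in venous cells (0.69 without Ackr1, a gene of the rule with 0 UMIs in other endothelial cells) and 0.73 in other endothelial cells, and interferon-gamma inducible genes at 0.65 and 0.49, while heat shock genes stood at -0.27 in venous and 0.14 in other endothelial cells.

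Regardless of the lists, genes were also named by a fixed rule: the 15 highest and 15 lowest log2 ratios among 3428 genes found in at least 10% of the venous cells of the higher library, with no more than 25% of their UMIs there in 1 cell. The highest was Slc7a11, the cystine and glutamate exchanger, at 16.3 CPM in Ctrl (14 UMIs) and 137 CPM in dKO (49 UMIs), a log2 ratio of 3.07 (2.19 to 4.05). It was found in 5.45% of Ctrl and 20.8% of dKO venous cells, 1 cell held 50% of its Ctrl UMIs, and in other endothelial cells it was at 2.77 and 21.4 CPM (log2 ratio 2.95, 1.05 to 5.13). Olr1, the endothelial receptor of oxidized LDL, was at 25.6 and 168 CPM (2.71, 1.99 to 3.49) and nearly absent from other endothelial cells, with 1.38 CPM in Ctrl and 0 UMIs in dKO. Slc7a1, a carrier of arginine and other cationic amino acids, was at 66.4 and 165 CPM (1.32, 0.77 to 1.87), with 26.3 and 24.1 CPM in other endothelial cells. The interferon-inducible DNA sensor genes Ifi204 and Ifi207 had log2 ratios of 1.57 and 1.32, next to Irf7 at 1.69 and Oasl2 at 1.35. Cd24a, a surface glycoprotein, had a log2 ratio of 1.98, from 25.6 CPM in Ctrl and 101 CPM in dKO, where 9 venous cells held it. Arterial cells carried more Cd24a, at 369 and 349 CPM. Crem, a cAMP-responsive transcription factor, stood at 1.38. Siah2, Por, Mical3, Arl5b, Rhbdf2 and Ywhag lay between 1.21 and 1.27. Rhbdf2, which carries the sheddase ADAM17 to the surface, had a log2 ratio of 0.50 in cells with 3 or more markers. Ifi207, Mical3, Por and Oasl2 were also under 2-fold higher, and Nbea and Sppl3 under 2-fold lower, in at least 1 alternative.

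At the low end Gadd45a, a growth arrest and DNA damage gene, was at 79.2 CPM in Ctrl (68 UMIs) and 14.0 CPM in dKO (5 UMIs), a log2 ratio of -2.50 (-4.17 to -1.21). Dnmt3a, a DNA methyltransferase, and Sdhd, a subunit of succinate dehydrogenase, were both at 57.1 and 11.2 CPM. In other endothelial cells Gadd45a was at 50.5 and 50.8 CPM. Ppp1r14a, an inhibitor of myosin phosphatase, was at 57.1 and 16.8 CPM, and Nuak1, a kinase of the AMPK family, at 119 and 42.1 CPM. Nuak1 was also lower in other endothelial cells, at 56.0 and 18.7 CPM. Ccm2l, a partner of the cerebral cavernous malformation proteins, was at 65.3 and 25.2 CPM. Col3a1, a collagen gene of fibroblasts, was at 103 and 33.6 CPM. Prxl2c, Ralgapa2, Fmnl3, Cbfa2t3, Nbea, Sppl3 and Rif1 lay between -2.32 and -1.34. Smad7, given above, is the other gene of the 15, and each of them rests on 4 to 19 dKO UMIs. Over the alternatives the log2 ratio of Gadd45a ran from -3.14 to -1.52 and that of Dnmt3a from -4.39 to -1.52.

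**Figure D5:**
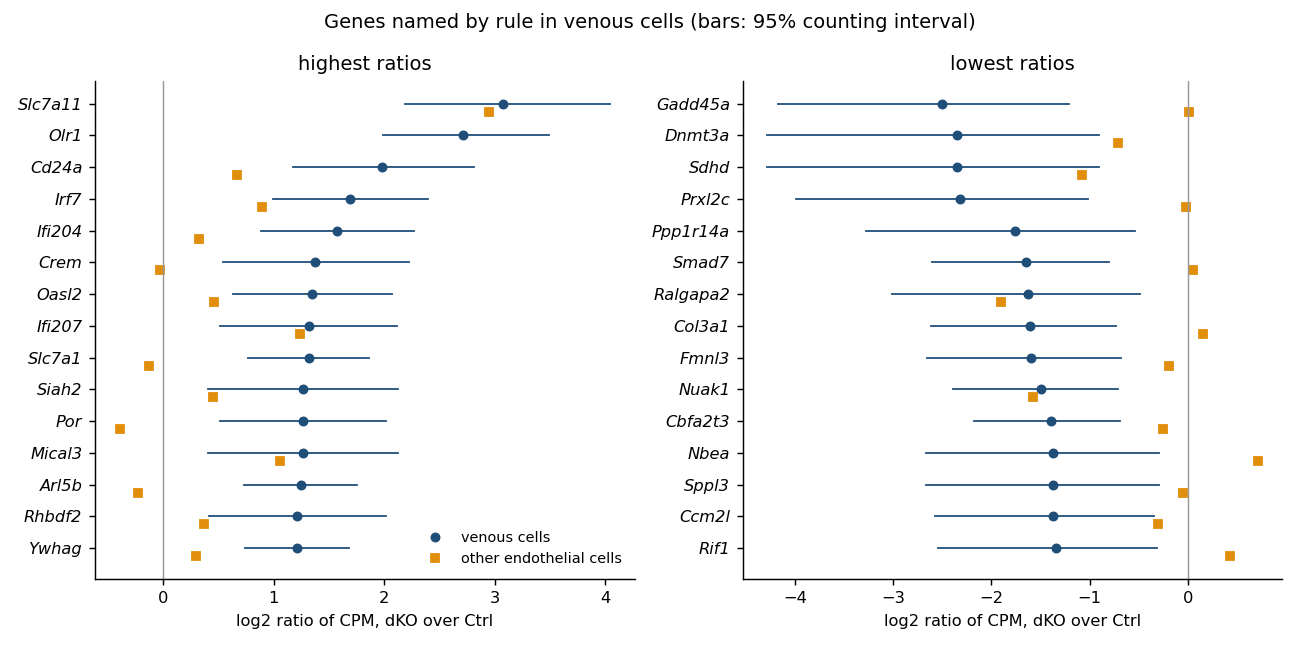
Log2 ratio of dKO to Ctrl of the 15 highest and 15 lowest genes in venous cells (circles, 95% counting intervals) and the same ratio in other endothelial cells (squares). Slc7a11 lies at 3.07 and Gadd45a at -2.50 in venous cells, and Gadd45a at 0.01 in other endothelial cells.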

How the data were processed

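Live cells of hind limb muscle were profiled on the 10x Chromium platform in 1 library of pooled mice per genotype. The authors deposited UMI counts per gene and cell barcode, and the Ctrl and dKO tables were used as deposited. The submitters' processing notes name Cell Ranger 7.0.0, Seurat 4.3.0 and mm10, whereas the file headers name Cell Ranger 3.0.2. None of the 24984 gene symbols is mitochondrial, so no mitochondrial filter could be applied. Cells with fewer than 500 genes (192 Ctrl, 154 dKO) were left out, leaving 4335 and 3329, the numbers the study gives after its own filters and doublet removal. UMIs were summed over the cells of a class and divided by their total (CPM). Python with numpy 2.4.6, scipy 1.17.1, pandas 2.3.3, scanpy 1.11.5 and matplotlib 3.10.9 was used.

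With 1 library per genotype no test was run. Intervals are exact Poisson for levels, exact binomial for shares, conditional binomial for ratios and Newcombe for differences of shares, all at 95%, and cover counting error only. A level of 0 was set to a floor of 3 UMIs where a fold against it is given. Genes needed 50 UMIs over both libraries, and past 2-fold is a description of size. Genes were also named by rank, as the 15 highest and 15 lowest, under limits on detection and on the share of UMIs in 1 cell. The members and lists were chosen with earlier results of these data known. Doublets were kept, and an alternative removed the 7.5% of cells with the highest Scrublet scores. Other alternatives changed the marker number, the marker set, the depth, the scaling, the averaging and the minimum of UMIs, or left out the deepest cell or the leading gene, and 4 more were chosen after seeing the data. The computation was tested on simulated data. Trac, 1 gene of the lymphocyte list, was not in the tables used.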

Additional observations from a re-analysis of the deposited data

Results flagged for a closer look

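In 6 gene lists the ratio of dKO to Ctrl pointed one way in venous cells and the other way in other endothelial cells with both 95% counting intervals apart from 0, and none of these differences was tested, since each side is 1 library per genotype. Heat shock proteins had a log2 ratio of -0.27 in venous cells and 0.14 in other endothelial cells. For BMP, TGF-beta and Notch genes the ratios were -0.18 and 0.09, and for immediate early genes -0.052 and 0.04. The other 3 lists mark other cell types. Fibroblast markers stood at -1.03 in venous and 0.87 in other endothelial cells, lymphatic markers at -2.32 (24 and 2 UMIs) and 1.73, and muscle markers at -3.38 (25 and 1 UMIs) and 2.98.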

How the results depend on the processing

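No paired analysis was possible because each genotype is 1 library, and for the same reason no replicate could be left out. The differences of shares kept their sign in 8 of 8 alternatives. They ran from 1.44 to 7.30 points of endothelial cells and from -1.11 to -0.589 points of all cells. The 30 genes named by rank kept their sign in 9 of 9. They were chosen as the most extreme ratios of the same cells, so this outcome was close to fixed beforehand. The counts past 2-fold in dKO were 157 higher and 398 lower with a minimum of 20 UMIs per gene, and 16 and 17 with 100. In the following, the log2 ratio of dKO to Ctrl over all venous cells is given first. Adhesion genes (0.33) stood at 0.26 by mean CPM, 0.21 with at least 3 markers, 0.24 with doublets removed, 0.16 with 4 markers, 0.23 without cells with mural markers, 0.21 without cells rich in other types' markers and 0.12 without the leading gene. Chemokine genes (0.80) stood at 0.93 without Lrg1 in the rule, 0.66 with doublets removed, 0.69 without the rich cells, 0.70 without the deepest cell and 0.69 without the leading gene. Antiviral genes (0.24) stood at 0.33 without Lrg1, 0.16 with doublets removed, 0.16 with 4 markers, 0.14 without the rich cells and 0.51 without the leading gene, and interferon-gamma inducible genes (0.65) at 0.55 with at least 3 and 0.55 with 4 markers. MHC class I genes (0.26) stood at 0.19 by mean CPM, 0.16 with at least 3 markers, 0.16 with doublets removed, 0.14 with 4 markers, 0.17 without cells with mural markers, 0.16 without the rich cells and 0.19 without the leading gene. Heat shock genes (-0.27) stood at -0.55 with at least 3 markers, -0.54 without Lrg1, -0.21 with doublets removed, -0.39 with 4 markers, -0.39 without cells with mural markers, -0.23 without the rich cells, -0.38 without the deepest cell and -0.19 without the leading gene. The sign turned for Sele (0.17 to -0.079 by mean CPM and -0.092 with 4 markers), venous genes outside the rule (0.17 to -0.029 with 4 markers), Weibel-Palade genes (to -0.12), shear-responsive genes (to -0.085) and arterial rule markers (to -1.64) without their leading gene, fibroblast markers (to 0.21 without cells with mural markers) and macrophage markers (to -0.13 without the deepest cell). Cd63 (to 0.11) and Fn1 (to 0.63) turned without the rich cells, and Cxcl12 (to 0.07) with 4 markers. MHC class II, neutrophil, platelet and mural markers, junction genes and the genes of the endothelial gate, whose intervals held 0, also turned under some alternatives. The settings with 4 markers, without mural markers and without the rich cells were chosen after seeing the data, as were the counts without genes of the rule, and the cause was not tested. The minimum of 50 UMIs per gene was a chosen threshold.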
